A study of Mus musculus with 15 samples.

Results

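The genes of bone morphogenetic protein (BMP), activin and transforming growth factor-β (TGF-β) signalling were followed in interneurons of the mouse cortex that lacked *Lhx6*, or that carried the label of an *Mtg8* mutant. The list held 44 genes, which were found in the tables by their symbols. It comprised a ligand group of 16, 12 receptors, 8 SMADs and 8 extracellular regulators. The ligand group includes *Bmp1*, a protease that shares the name of the BMPs and is not itself a ligand. The deposited *Lhx6* table, of 26835 genes, held 43 of them, and the *Mtg8* table, of 25714 genes, held 41. *Nodal* was not analysed here in either table, nor *Tgfb1* and *Smad9* in the *Mtg8* table.

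Ligands of this family are secreted dimers that bind a pair of type II receptors (*Bmpr2*, *Acvr2a*, *Acvr2b*, *Tgfbr2*), which phosphorylate type I receptors (*Bmpr1a*, *Bmpr1b*, *Acvr1*, *Acvr1b*, *Tgfbr1*, *Acvrl1*). The type I receptors phosphorylate SMAD proteins: SMAD1, SMAD5 and SMAD9 downstream of BMPs, SMAD2 and SMAD3 downstream of activins and TGF-βs. SMAD4 joins both branches, whereas SMAD6 and SMAD7 inhibit them. Noggin, chordin, gremlin and follistatin bind ligands outside the cell, and the latent TGF-β binding proteins (*Ltbp1*, *Ltbp3*) hold TGF-β in the matrix. In the telencephalon, BMP signalling is best known for patterning the dorsal midline and for its effects on progenitors and on the differentiation of interneurons.

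Each library came from the YFP-positive cells of the cortex of 1 embryo at E14.5. Every embryo carried Nkx2-1-Cre and R26R-YFP, which labels cells that descend from the medial ganglionic eminence (MGE), and no other lineage mark was used. The groups were *Lhx6*+/+ controls (4 libraries), *Lhx6*-/- mutants (5 libraries), *Mtg8*+/+ controls (3 libraries) and libraries labelled *Mtg8*-/- (3 libraries). Both mutations were germline, so that every cell of an embryo was affected, and the *Mtg8* allele is a LacZ insertion. LHX6 is a LIM-homeodomain transcription factor of MGE-derived interneurons, and MTG8, encoded by *Runx1t1*, is a transcriptional co-repressor. Each comparison was normalized on its own, so the tests were made within a table only.

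The libraries held 12218422 to 22053032 reads on genes. *Lhx6* itself fell from 7247 ± 1093 (SD, n = 4) to 331 ± 99.7 (n = 5) normalized counts. *Runx1t1* was not lower in the libraries labelled *Mtg8* mutant: it lay between 7938 and 10265 in controls and between 12250 and 13934 in the labelled mutants, counted over all exons. How many reads the LacZ allele leaves on these exons was not tested, so this level does not check the labels. These 3 libraries are named by their label throughout, and any direction drawn from them rests on that label. The summed MGE interneuron markers, given with *Bmpr1b*, were lower in all 3 than in any of their controls. That list holds the peptide genes *Sst* and *Npy*, and *Gad1*, *Gad2* and *Dlx* genes beside MGE transcription factors. The sum is thus not a measure of the share of MGE cells, and the part of single genes in it was not tested. Interneuron genes marked every library, with a summed level of 14 MGE interneuron markers of at least 33068 normalized counts. The summed levels of 10 endothelial markers did not exceed 362, and 0 of the 10 were at 0 in every library. Erythroid markers were high, however: the 5 with a row summed to 5966 to 58615 in *Lhx6* controls and to 1798 to 20401 in mutants. In the *Mtg8* table they summed to 10844.5 to 27162 in controls and to 15493 to 31665 in labelled mutants. The part of erythroid RNA in the values was not tested. Choroid plexus markers stood at 5721 in *Lhx6* control 1 and 19871 in *Lhx6* mutant 3, against at most 884 in the other 7 libraries of that table. The 10 pyramidal neuron markers summed to 19653 to 25581 in *Lhx6* controls and to 25105 to 36154 in mutants. Library names came in a dated and an undated style, treated as a possible batch. All *Lhx6* controls and mutant 6 were undated and the other 4 mutants dated, so that style and genotype can hardly be told apart in that table. Names that differ only in their last number were shared by *Lhx6* controls 1 and 2 and mutant 6, by *Lhx6* mutants 2 and 5, and by *Mtg8* controls 1 and 2 and labelled mutant 2. The study's methods describe mutants as littermates of controls, but what a shared name stands for is not given in the sources used here.

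In the sorted control libraries, receptors and SMADs of both branches were present, whereas most ligands were low. The 11 radial glia and progenitor markers summed to 12053 to 14314 in *Lhx6* controls, beside the pyramidal and erythroid sums given above. Which cells held the receptor and SMAD RNA was not tested. Levels between genes are given as normalized counts per kilobase of exon. Among receptors of the *Lhx6* controls, *Acvr2a*, an activin type II receptor, stood first at 178 ± 23.1 (SD, n = 4). *Tgfbr1*, a TGF-β type I receptor, followed at 135 ± 15.1 and *Acvr1b*, an activin type I receptor, at 108 ± 33.7. *Bmpr2*, *Bmpr1a*, *Acvr2b* and *Acvr1* came next, between 90.7 ± 9.45 and 51.7 ± 8.04, and neighbours in this order, *Acvr2a* and *Tgfbr1* included, overlapped in their control libraries. *Bmpr1b* stood far below them at 7.72 ± 0.914, and its highest control library was under the lowest control library of each of these 7 receptors. *Eng*, *Tgfbr3*, *Acvrl1* and *Tgfbr2* had means of at most 2.38. *Tgfbr2*, the sole type II receptor for TGF-β, was at 0.252 ± 0.435. *Eng* and *Acvrl1*, both best known from endothelial cells, had at most 23 reads in any library of this table.

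**Figure D1:**
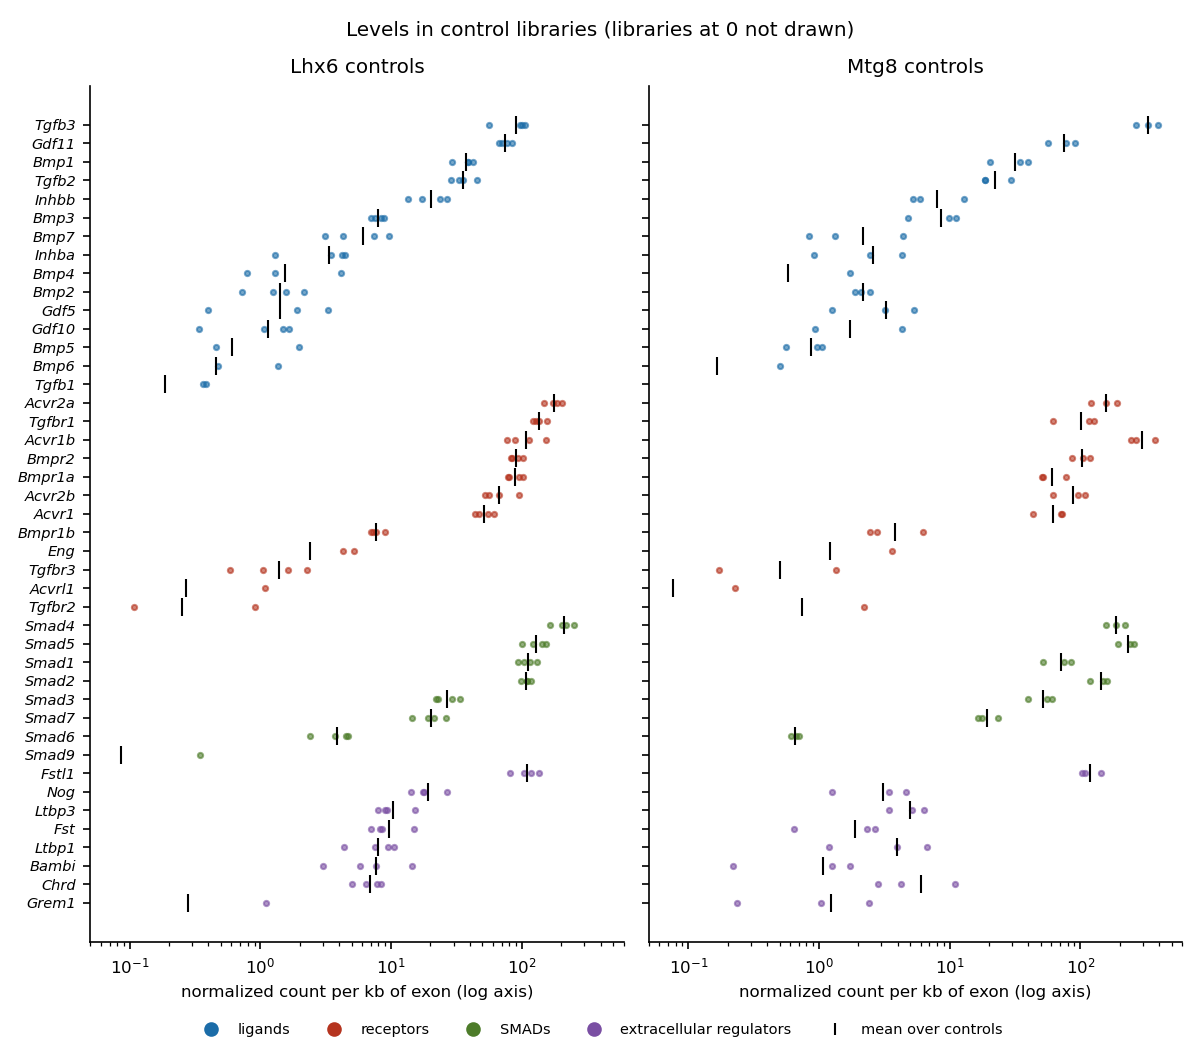
Normalized counts per kilobase of exon in the control libraries (points) and their mean (vertical ticks), for each gene with a row, on a log axis, with the *Lhx6* controls on the left and the *Mtg8* controls on the right. *Bmpr1b* sits at 7.72 and 3.83, below the other 3 BMP receptors *Bmpr1a*, *Bmpr2* and *Acvr1*.

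The *Mtg8* controls gave a similar list with another leader. *Acvr1b* was highest among receptors at 296 ± 69.3 (SD, n = 3), then *Acvr2a* at 156 ± 35.0. *Bmpr1b* was again low, at 3.83 ± 2.11 against 60.6 ± 15.3 for *Bmpr1a* and 103 ± 16.4 for *Bmpr2*. *Smad4*, the common SMAD, led the SMADs of the *Lhx6* controls at 208 ± 35.0, and *Smad5*, of the BMP branch, those of the *Mtg8* controls at 232 ± 33.6, where the libraries of *Smad4* and *Smad5* overlapped. *Smad9* had at most 2 reads in a library of the *Lhx6* table. *Tgfb3* had the highest mean of the ligands in both sets of controls, at 89.6 ± 22.8 and 329 ± 63.1. *Gdf11*, a ligand of the activin branch, was second at 74.9 ± 7.40 and 74.8 ± 17.2. In *Lhx6* controls these genes overlapped, with *Gdf11* above *Tgfb3* in control 2. *Fstl1*, a secreted follistatin-like protein, led the extracellular regulators with 109 ± 22.2 and 118 ± 22.4. The remaining regulators were at or below 19.1 in both. The plot of control levels shows this order by role.

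The promoters of *Bmpr1b* and of the BMP receptors it is set against are shown because the comparison turns on *Bmpr1b*, and that of *Acvr2b* because it stood at an unadjusted p under 0.05 in both tables. The windows hold 250 bases before and 50 bases after an annotated start (RefSeq, GRCm38.p6), and 30 of the 44 genes had such a window, *Tgfb3* not among them. Capitals mark matches on either strand to the homeodomain cores TAATTA or TAATTG, to GGCGCC, a motif bound by BMP SMADs, or to GTCTAGAC, a palindrome bound by SMAD3 and SMAD4. *Bmpr1b* has 3 such windows, of which the one farthest upstream is given. It lies inside the gene model that was counted, whose 5′ end is farther upstream, and so do the *Bmpr1a* and *Bmpr2* windows in theirs. Gene-level counts do not tell which start was used.
Bmpr1b (chr3:141982215-141982514, minus strand): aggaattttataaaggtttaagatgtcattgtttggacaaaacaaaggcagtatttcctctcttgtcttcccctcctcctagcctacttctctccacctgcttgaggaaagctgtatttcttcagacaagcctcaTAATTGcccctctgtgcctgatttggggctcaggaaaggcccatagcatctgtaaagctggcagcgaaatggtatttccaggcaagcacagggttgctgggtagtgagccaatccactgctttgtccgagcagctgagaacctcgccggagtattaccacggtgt
Bmpr1a (chr14:34502497-34502796, minus strand): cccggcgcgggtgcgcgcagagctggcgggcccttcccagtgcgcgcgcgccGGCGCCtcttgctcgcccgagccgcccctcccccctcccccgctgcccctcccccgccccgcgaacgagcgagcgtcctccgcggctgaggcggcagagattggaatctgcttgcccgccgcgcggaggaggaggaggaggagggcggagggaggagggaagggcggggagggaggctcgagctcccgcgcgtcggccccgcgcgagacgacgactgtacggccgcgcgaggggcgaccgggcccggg
Bmpr2 (chr1:59764029-59764328, plus strand): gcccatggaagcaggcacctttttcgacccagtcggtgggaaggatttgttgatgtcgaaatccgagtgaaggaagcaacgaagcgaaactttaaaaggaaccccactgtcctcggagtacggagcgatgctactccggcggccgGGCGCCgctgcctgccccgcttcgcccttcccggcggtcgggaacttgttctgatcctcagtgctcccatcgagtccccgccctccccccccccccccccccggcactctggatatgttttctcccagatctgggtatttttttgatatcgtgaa
Acvr2b (chr9:119401928-119402227, plus strand): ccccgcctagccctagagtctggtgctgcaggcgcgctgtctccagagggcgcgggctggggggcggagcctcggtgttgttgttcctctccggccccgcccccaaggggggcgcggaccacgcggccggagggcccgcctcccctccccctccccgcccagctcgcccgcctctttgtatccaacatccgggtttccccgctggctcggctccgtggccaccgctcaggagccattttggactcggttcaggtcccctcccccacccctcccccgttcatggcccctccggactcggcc
The *Bmpr1b* window held 1 TAATTG and 48.3% G or C, and its other 2 windows (53.0% and 55.7% G or C) held none of the 4 motifs. The *Bmpr1a* and *Bmpr2* windows each held 1 GGCGCC, with 79.3% and 59.3% G or C, and none of the 4 motifs was found in that of *Acvr2b*. Over all 32851 windows, TAATTG occurred in 8.0% and GGCGCC in 11.9%, against 3 and 10 of the 36 windows of the list. TAATTA occurred in 5.29% of all windows and in 0 of the 36, and GTCTAGAC in 0.213% and in 1 of the 36, that of *Smad6*. A match is a string of letters and not a measured site.

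The first question was how the family changed when *Lhx6* was absent. A single member passed the test across all genes: *Tgfb3* fell, and 0 members rose. Of the 43 genes, 30 had a mean of at least 10 normalized counts and were tested with limma, with Benjamini-Hochberg adjustment over 16727 genes. Across that table, 0.682% of genes were called lower and 1.03% higher. At an unadjusted p under 0.05, where 12.7% of all genes stood, there were 5 of the 30 members (16.7%): *Tgfb3* and *Ltbp3* lower in value, and *Acvr2b*, *Acvr1* and *Gdf11* higher. In 3 of 30 (*Tgfb3*, *Ltbp3* and *Acvr1*) the groups did not overlap, against 6.22% of all genes. The median log2 fold change over the 30 was -0.04, the same as over all genes (-0.04), with 15 below and 15 above 0. Of the 30, 1 (*Tgfbr3*) passed the filter only through the mutants (control mean 9.02).

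**Figure D2:**
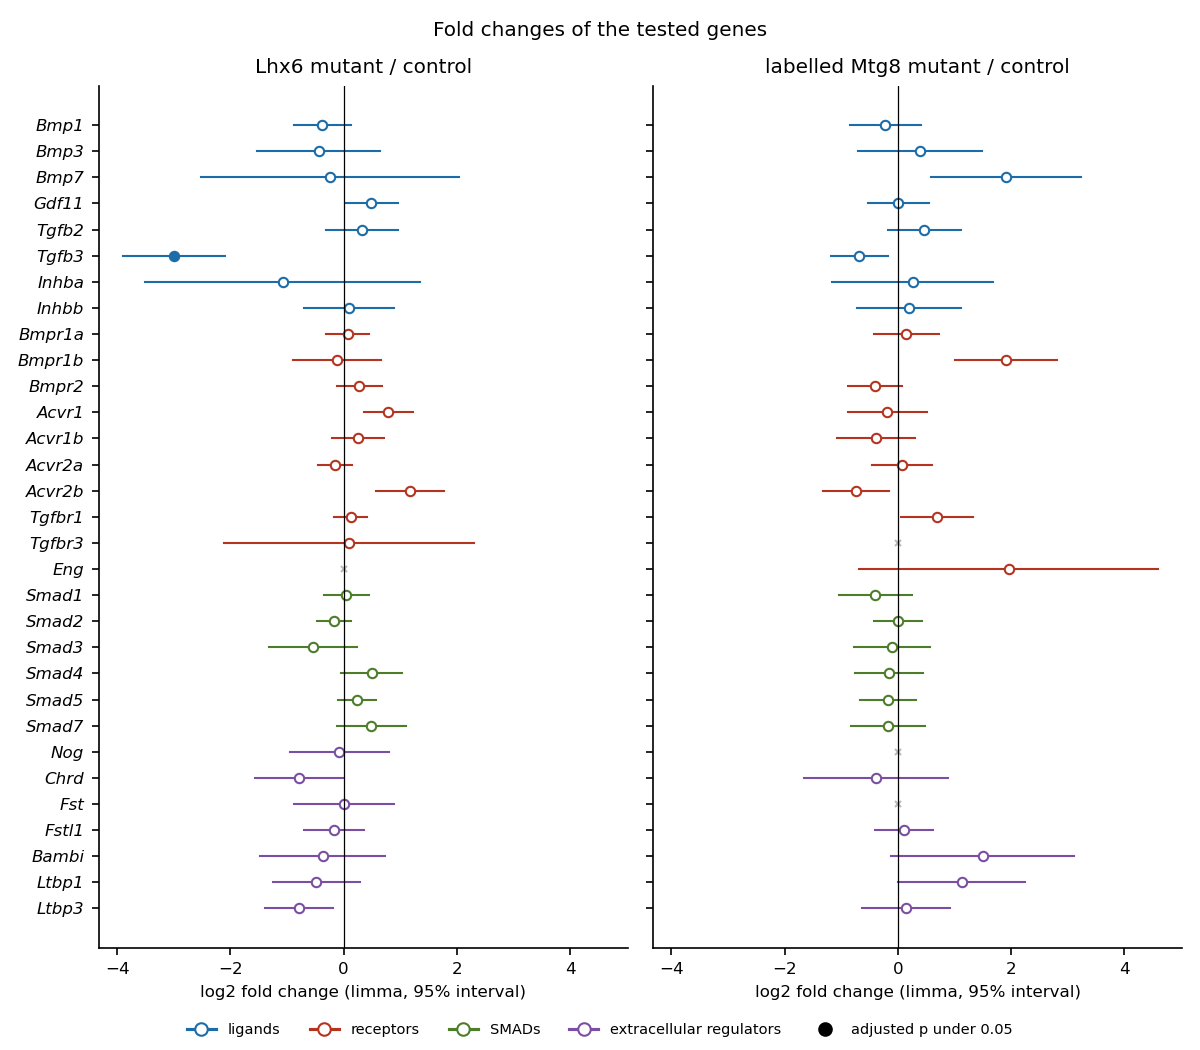
Log2 fold change of each gene with its 95% interval from limma, for mutants against controls in the *Lhx6* table (left) and the *Mtg8* table (right). Filled circles passed an adjusted p of 0.05, open circles did not, and grey crosses mark genes below the filter; *Tgfb3* in the *Lhx6* table, at -3.00, is the only filled circle.

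*Tgfb3* encodes TGF-β3, a ligand of the TGF-β branch (chromosome 12, 86056745 to 86079041, minus strand, GRCm38). Its normalized counts were 329, 189, 356 and 339.5 in *Lhx6* controls 1 to 4. In mutants 1, 2, 3, 5 and 6 they were 34.6, 14.8, 57.7, 72.7 and 27.2. Every mutant lay under every control, and the mutant mean was 13.7% of the control mean. The log2 fold change was -3.00 ± 0.42 (SE; limma, adjusted p = 0.0018), on the scale of log2(normalized count + 1). A fit with name style as a further term takes the difference from mutant 6 alone, the sole undated mutant. There the change was -3.39 and missed the threshold (limma, adjusted p = 0.0925; the range over 19 alternatives was 2.1e-10 to 0.0925). In bulk libraries, fewer cells that express a gene and less RNA per cell cannot be told apart. The exons of *Tgfb3* overlap those of *Gm37804* and *Gm48008* on the other strand, and the use of strand in counting is not given in the sources used here.

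The other genes of the ligand group gave no call. *Gdf11* had normalized counts of 274, 287, 342 and 314 in controls and 505, 527, 312, 545 and 308 in mutants, where mutants 3 and 6 lay within the controls' range. Its log2 fold change was 0.49 ± 0.22 (limma, adjusted p = 0.375). Against the controls, all undated, mutant 6 alone gave 0.0245 for *Gdf11*. *Bmp7*, a BMP ligand made in the meninges and dorsal midline among other places, had 12.5, 39.0, 29.5 and 17.1 in controls and 56.9, 23.1, 85.7, 24.2 and 0 in mutants, which spread to both sides of the controls. Its highest value was in mutant 3, the library with the highest choroid plexus and meningeal marker sums (19871 and 1145). The same library held the highest *Bmp6* (19.6) and *Gdf5* (34.5) of the table. The part of these cells in the values was not tested. *Bmp1*, whose protease cleaves chordin and procollagens, averaged 330.2 ± 50 (SD, n = 4) in controls and 261 ± 78.3 (n = 5) in mutants. *Tgfb2* averaged 207 ± 41.8 and 272 ± 108. *Inhbb*, an activin subunit, averaged 86.0 ± 25.3 and 96.7 ± 39.6, and *Bmp3* averaged 58.6 ± 6.05 and 53.1 ± 34.7. The other activin subunit, *Inhba*, ran from 0 to 75.5 in mutants, around the 8.29 to 28.4 of controls. All of these overlapped. Of 15 genes of the group with a row, 7 were below the filter (*Bmp2*, *Bmp4*, *Bmp5*, *Bmp6*, *Gdf5*, *Gdf10* and *Tgfb1*), with at most 37 reads in a library.

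Among receptors, the 2 with the largest changes were *Acvr2b* and *Acvr1*, and neither passed the threshold with limma. *Acvr2b* encodes a type II receptor for activins and GDF11 (chromosome 9, 119402118 to 119434995, plus strand). It had 261, 221, 371 and 204 normalized counts in controls and 938, 730.3, 503, 536 and 355 in mutants. Mutants 1, 2, 3 and 5 stood above every control, and mutant 6 lay just under control 3. The log2 fold change was 1.17 ± 0.27 (limma, adjusted p = 0.0527). On the recovered reads DESeq2 gave 1.21 with an adjusted p of 0.0017, and over 19 alternatives the adjusted p ran from 0.0017 to 0.99998, under 0.05 in 5 of them.

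*Acvr1*, a type I receptor for BMPs also known as ALK2 (chromosome 2, 58388644 to 58567157, minus strand), had 211, 226, 298 and 264 normalized counts in controls and 598, 453, 396, 417 and 327 in mutants. All 5 mutants stood above all 4 controls. Its log2 fold change was 0.79 ± 0.20 (limma, adjusted p = 0.0769), and DESeq2 gave 0.81 with an adjusted p of 0.0050 (range over 19 alternatives 0.0050 to 0.99998). DESeq2 called 4.53% of the genes that it gave an adjusted p, and 3 of the 36 members with one: *Tgfb3* lower, *Acvr2b* and *Acvr1* higher. For both receptors the lowest mutant was number 6, the undated one. Against the 4 controls, all undated, mutant 6 alone gave 0.47 for *Acvr2b* and 0.40 for *Acvr1*. Mutant 6 also had the lowest pyramidal neuron sum of the mutants (25105), within the controls' range, and mutant 1, the highest in both receptors, had the highest (36154). The 7 markers of interneurons from the caudal ganglionic eminence (CGE) with a row, 0 of them at 0 in every library, summed to 2786 to 4064 in *Lhx6* controls and to 4590 to 7733 in mutants, without overlap. These sums thus separated the groups as *Tgfb3* and *Acvr1* did, and the part of either kind of cell was not tested.

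No other receptor reached an unadjusted p under 0.05. *Acvr2a* averaged 1009 ± 131 (SD, n = 4) and 907 ± 78.4 (n = 5), with library values of 1149, 838, 1060.3 and 990.3 against 974, 812, 993, 847 and 909. *Tgfbr1* averaged 880.2 ± 98.7 and 959 ± 77.6, with library values of 1018, 832, 791 and 879 against 995, 1017, 990.1, 823 and 967. *Acvr1b* had 502, 391, 676 and 340.4 in controls and 572, 609, 633, 535 and 429.6 in mutants. Exons of *Acvr2a* overlap those of *Orc4* on the other strand. The groups overlapped in all of these. Over the 9 tested receptors the log2 fold changes had a median of 0.13, with 2 below and 7 above 0. The 7 include *Tgfbr3*, which passed the filter only through the mutants.

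*Bmpr1b*, a type I receptor for BMPs and GDFs (chromosome 3, 141837136 to 142169425, minus strand), did not differ detectably between *Lhx6* mutants and controls. Its normalized counts were 53.8, 43.4, 41.5 and 45.3 in controls and 23.5, 30.5, 55.9, 56.2 and 59.4 in mutants. The controls lay within a narrow range, and mutants 1 and 2 lay below it while mutants 3, 5 and 6 lay above it. The log2 fold change was -0.11 ± 0.36, with a 95% interval of -0.89 to 0.67 (limma, adjusted p = 0.909). *Bmpr1a*, the closest related type I receptor, had 501, 605, 506 and 645 in controls and 814, 521, 542, 586 and 525 in mutants (0.07 ± 0.17; limma, adjusted p = 0.880). *Bmpr2*, a type II receptor of BMPs, had 1491, 1499.5, 1848 and 1682 and 2629.5, 1865, 1931, 2353 and 1334 (0.28 ± 0.18; limma, adjusted p = 0.547). The groups overlapped in each. Exons of *Bmpr1a* share positions with the antisense gene *Gm17110*.

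None of the 6 tested SMADs reached an unadjusted p under 0.05 in the *Lhx6* table. *Smad4* had 612, 753, 926 and 804 normalized counts in controls and 1824, 1374, 732, 933 and 854 in mutants, so that mutants 1, 2 and 5 stood above all controls, mutant 5 by little, and mutants 3 and 6 did not. *Smad5* averaged 958 ± 172 and 1116 ± 107, with mutants at 1220.1, 1046, 987, 1230.3 and 1095 and controls at 1060.4, 744, 1128 and 899.7. Exons of *Smad5* share positions with *Gm27301* on the same strand. *Smad6* and *Smad9* were below the filter. *Smad7*, an inhibitory SMAD, averaged 91.7 ± 21.7 and 132 ± 43.0, and *Smad3* 149 ± 30.3 and 112 ± 55.8. The log2 fold changes of the 6 ran from -0.55 (*Smad3*) to 0.49 (*Smad4*).

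Among extracellular regulators, *Ltbp3* (chromosome 19, 5740904 to 5758532, plus strand) had 83.6, 137, 81.1 and 71.8 normalized counts in controls and 47.0, 58.3, 60.5, 47.5 and 47.1 in mutants. All mutants lay under all controls, and control 2 stood above the other controls. The log2 fold change was -0.79 ± 0.28 and did not pass the threshold (limma, adjusted p = 0.234). *Ltbp1* averaged 85.2 ± 29.0 and 60.7 ± 22.2, with 102, 112, 81.1 and 46.2 against 37.1, 42.6, 65.2, 93.0 and 65.6. *Fstl1* had 659, 575, 507 and 401 in controls and 275, 624, 608, 431 and 494 in mutants. Of the 7 tested regulators, 6 had a log2 fold change below 0, none of them called. *Chrd*, which encodes chordin, averaged 43.3 ± 9.40 in controls and 25.0 ± 7.54 in mutants, with a 95% interval of the log2 fold change from -1.58 to 0.0021. *Nog*, which encodes noggin, averaged 32.4 ± 9.04 and 31.92 ± 13.13, and *Fst*, which encodes follistatin, 44.3 ± 16.2 and 47.2 ± 26.5. *Bambi*, a pseudoreceptor without kinase activity, averaged 39.0 ± 24.4 and 27.96 ± 11.43. *Grem1*, a BMP antagonist, was below the filter with at most 27 reads.

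**Figure D3:**
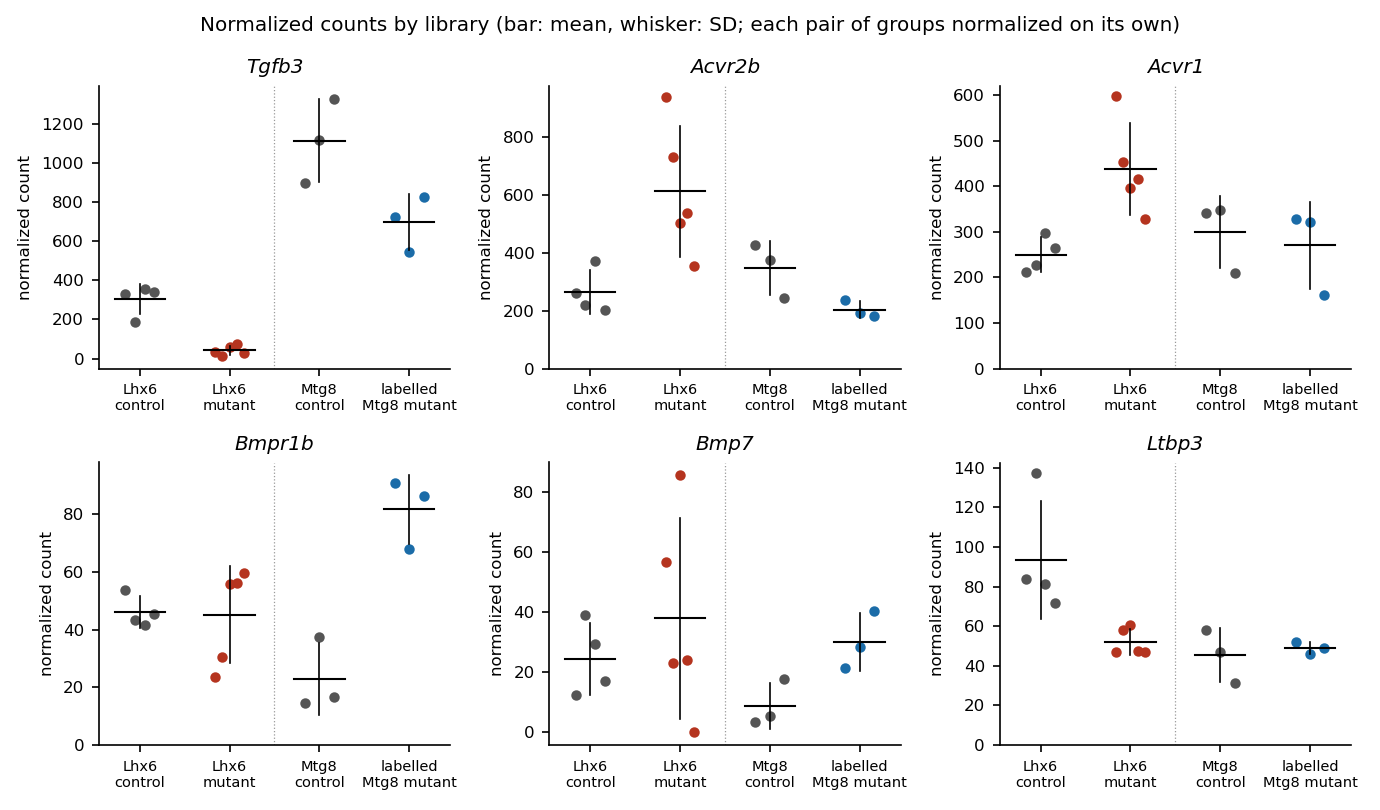
Normalized counts of 6 genes in every library (points), with group means (bars) and SD (whiskers); both tables were normalized separately, so only groups on the same side of a dotted line compare. In *Lhx6* mutants *Tgfb3* lies between 14.8 and 72.7, below all controls, and *Bmpr1b* in the labelled *Mtg8* mutants lies between 68.0 and 90.6, above all of theirs.

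The second question was how the family stood in libraries labelled *Mtg8* mutant. No member passed the test: of 41 genes with a row, 28 were tested and 0 were called lower or higher by limma, as were 0% of all 16132 genes tested. At an unadjusted p under 0.05 stood 6 of the 28 (21.4%), against 5.49% of all genes. *Tgfb3* and *Acvr2b* were lower, and *Bmpr1b*, *Bmp7*, *Tgfbr1* and *Ltbp1* were higher in value. In 4 of 28 (14.3%) the groups did not overlap, against 10.2% of all genes. DESeq2 on the recovered reads called 0.191% of the genes that it gave an adjusted p and 1 of the 28 members with one, *Bmpr1b*, higher, and edgeR's quasi-likelihood test called 0 members. The median log2 fold change was 0.04 over the 28 and -0.01 over all genes. Of the 28, 3 passed the filter only through the labelled mutants, with control means of 8.76 (*Bmp7*), 4.89 (*Eng*) and 5.44 (*Bambi*), so that their higher values are not counted as a result. Among the other 25, 5 stood at an unadjusted p under 0.05, and in 3 the groups did not overlap.

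*Bmpr1b* had the smallest adjusted p of the members. Its normalized counts were 14.5, 37.3 and 16.6 in *Mtg8* controls 1, 2 and 4. In labelled mutants 2, 3 and 4 they were 90.6, 68.0 and 86.4. All 3 labelled mutants stood above all 3 controls. The mean was 22.8 ± 12.6 in controls and 81.7 ± 12.02 in labelled mutants (SD, n = 3 each), on 13 to 113 reads per library. The log2 fold change was 1.91 ± 0.42, with a 95% interval of 1.002 to 2.81 (limma, unadjusted p = 0.00059, adjusted p = 0.636). DESeq2 gave 1.84 with an adjusted p of 0.0393, and over 16 alternatives the adjusted p ran from 0.0393 to 0.999, under 0.05 in 2. Within the dated libraries (2 controls, 1 labelled mutant) the difference was 1.91, and within the undated ones (1 control, 2 labelled mutants) it was 2.14.

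Several marker sums separated the same groups of libraries as *Bmpr1b* did, where 10.2% of all genes had groups without overlap. The 11 markers of radial glia and cycling progenitors summed to 8426 to 10125 in controls and to 11302 to 15455 in the labelled mutants, and none of the 11 was at 0. The 14 MGE interneuron markers summed to 73951 to 80303 in controls and to 44642 to 61450 in the labelled mutants. The 7 CGE interneuron markers summed to 2420 to 2611 in controls and to 2816 to 3296 in the labelled mutants. None of these pairs of ranges overlapped. The part of any of them in the *Bmpr1b* values was not tested. Labelled mutant 2 had 1999 normalized counts of choroid plexus markers, against at most 47.9 in the other 5 libraries. Without it the log2 fold change of *Bmpr1b* was 1.83.

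*Bmpr1a* and *Bmpr2* showed no such separation. *Bmpr1a* had 332, 497 and 325 normalized counts in controls and 489, 482 and 313 in labelled mutants (0.15 ± 0.26; limma, adjusted p = 0.946). *Bmpr2* had 1546, 2135 and 1875 and 1785, 1159.8 and 1278 (-0.41 ± 0.22; limma, adjusted p = 0.859). The groups overlapped for both.

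The level of *Bmpr1b* relative to these receptors was therefore taken within each library, as the log2 ratio of (normalized count + 1), which does not depend on the scaling of the library beyond the added 1. In *Mtg8* controls the ratio to *Bmpr1a* was -4.42, -3.70 and -4.21, and in labelled mutants it was -2.42, -2.81 and -1.84. The groups did not overlap, and the difference was 1.75 ± 0.35 (SE; exact two-sided permutation test, p = 0.1, which is the smallest that 3 against 3 can give). The ratio to *Bmpr2* was -6.64, -5.80 and -6.73 in controls and -4.29, -4.07 and -3.87 in labelled mutants, a difference of 2.31 ± 0.32 (exact permutation p = 0.1). Adjusted over the 4 comparisons of this kind, both had a permutation p of 0.2. A permutation of 3 against 3 libraries cannot reach 0.05.

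In the *Lhx6* table the same ratios did not separate the groups. The ratio of *Bmpr1b* to *Bmpr1a* was -3.19, -3.77, -3.58 and -3.80 in controls and -5.06, -4.05, -3.26, -3.36 and -3.12 in mutants, with mutant 1 lowest and mutant 6 highest of all 9. The difference was -0.18 ± 0.43 (exact two-sided permutation p = 0.786, adjusted 0.786, where 4 against 5 can reach 0.00794). To *Bmpr2* the ratio was -4.77, -5.08, -5.44 and -5.18 in controls and -6.75, -5.89, -5.09, -5.36 and -4.46 in mutants, a difference of -0.39 ± 0.45 (exact permutation p = 0.452, adjusted 0.603). The sign of the ratio to *Bmpr1a* turned without mutant 1 (0.14). Mutant 1 was also the lowest in the ratio to *Bmpr2*, and over 12 alternatives that difference ran from -0.65 to 0.65. Against the controls, all undated, mutant 6 alone gave 0.46 for *Bmpr1a* and 0.65 for *Bmpr2*. Whether the effect on *Bmpr1b* differed between the *Lhx6* and *Mtg8* tables was not tested.

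**Figure D4:**
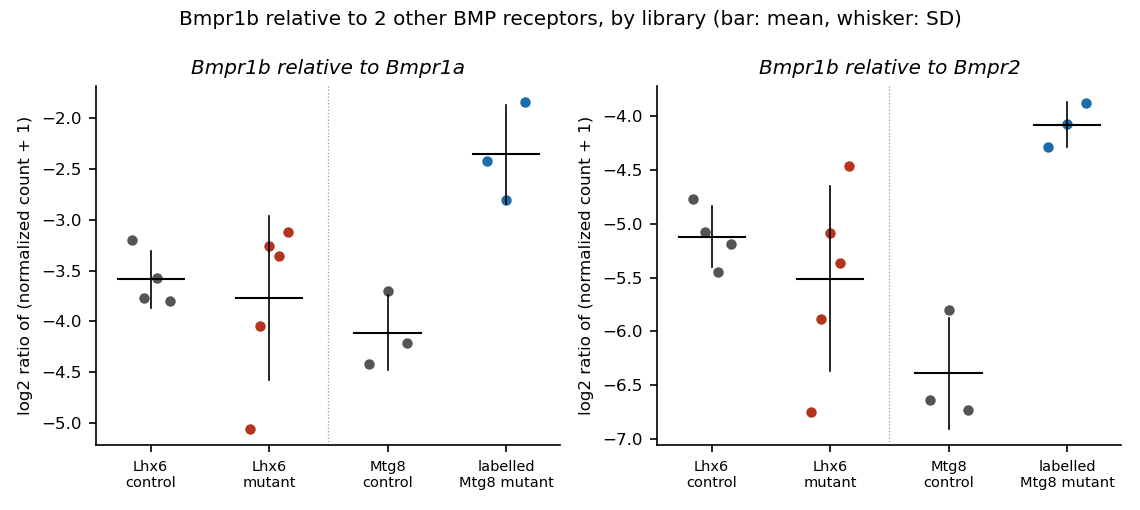
Log2 ratio of *Bmpr1b* to *Bmpr1a* (left) and to *Bmpr2* (right) in every library (points), with group means (bars) and SD (whiskers). The labelled *Mtg8* mutants lie above their controls in both, by 1.75 and 2.31, whereas the *Lhx6* groups overlap.

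Among the other receptors of the *Mtg8* table, *Acvr2b* went the other way. It had 426, 374 and 244 normalized counts in controls and 238, 191 and 181 in labelled mutants, all 3 below the lowest control, which was close to labelled mutant 2. The log2 fold change was -0.74 ± 0.27 (limma, adjusted p = 0.859), against 1.17 in the *Lhx6* table. The MGE, CGE and progenitor marker sums given with *Bmpr1b* separated the same libraries, and their part in the *Acvr2b* values was not tested. *Tgfbr1* had 401, 764 and 825 in controls and 965, 823 and 1362 in labelled mutants, where labelled mutant 3 lay under control 4 (0.70 ± 0.29; limma, adjusted p = 0.859). Without control 1, the lowest, the log2 fold change of *Tgfbr1* was 0.37. *Acvr1* averaged 299.7 ± 78.3 and 269.9 ± 94.8, with 342, 348 and 209 against 329, 321 and 161. *Acvr1b* had 1181, 1086 and 1657 in controls and 1111, 564 and 1519.7 in labelled mutants, and *Acvr2a* had 684, 895 and 1082 and 739, 867 and 1195. The groups of these 3 overlapped. *Eng*, a co-receptor of endothelial cells, had 0, 0 and 14.7 in controls and 3.398, 3.676 and 43.57 in labelled mutants. Its highest values of each group, in control 4 and labelled mutant 4, were in the libraries with the highest endothelial sums (362 and 264). The part of these cells was not tested.

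*Tgfb3* was lower in value here too, and whether its difference or that of *Acvr2b* differed between the tables was not tested. Its normalized counts were 898, 1117 and 1324 in controls and 722, 544 and 824 in labelled mutants, all 3 under the lowest control. The labelled mutants averaged 62.6% of controls (-0.68 ± 0.23; limma, adjusted p = 0.859). The summed MGE interneuron markers were lower in the same libraries, with medians of 78277 in controls and 46368 in labelled mutants and no overlap, and their part in the *Tgfb3* values was not tested. *Bmp7* had 3.35, 5.33 and 17.6 in controls and 21.5, 28.5 and 40.5 in labelled mutants, on 3 to 53 reads. The lowest of its 3 labelled mutants was number 2, the library with the choroid plexus markers. *Gdf11* had 315, 367 and 229 in controls and 329.7, 293 and 277 in labelled mutants. *Tgfb2* averaged 129 ± 35.3 and 178 ± 38.2. *Bmp1* averaged 280.5 ± 89.8 and 233 ± 32.1, *Bmp3* 63.8 ± 24.7 and 94.6 ± 68.6, and *Inhbb* 34.1 ± 17.7 and 36.4 ± 3.33. Of the 8 tested genes of the ligand group, 2 had a log2 fold change below 0 and 6 above. The 6 include *Bmp7*, which passed the filter only through the labelled mutants.

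All 6 tested SMADs had log2 fold changes below 0 in the *Mtg8* table, from -0.40 (*Smad1*) to -0.003 (*Smad2*), and none reached an unadjusted p under 0.05. *Smad4* had 699.7, 817 and 586 normalized counts in controls and 696, 848 and 407 in labelled mutants, and *Smad5* had 1445, 1796 and 1927 and 1802, 1125 and 1713. Both overlapped. *Ltbp1* had 42.5, 12.8 and 71.4 in controls and 83.8, 78.1 and 66.5 in labelled mutants, where control 4 lay within the labelled mutants' range (1.13 ± 0.52; limma, adjusted p = 0.859). Without control 2, the lowest, the log2 fold change of *Ltbp1* was 0.45. *Fstl1* had 503, 531 and 706 in controls and 781, 535 and 572 in labelled mutants, and *Ltbp3* had 58.1, 46.9 and 31.3 and 52.1, 46.0 and 48.9. *Chrd* averaged 37.9 ± 27.6 and 28.2 ± 20.0. *Bambi* had 1.12, 6.40 and 8.80 in controls and 6.80, 18.4 and 22.2 in labelled mutants, with labelled mutant 2 under control 4. *Nog*, *Fst* and *Grem1* were below the filter of this table, with at most 31 reads in a library.

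A further 82 genes of the pathway (other ligands, receptors, extracellular proteins, SMAD regulators and response genes) were counted beside the members. Of these, 48 were tested with *Lhx6* mutants, of which 1 was called lower and 1 higher, and 13 stood at an unadjusted p under 0.05 (27.1%, against 12.7% of all genes). Both called genes encode secreted proteins, and the CGE marker sums given with *Acvr1* separated the same libraries; the part of these cells was not tested. *Bmper*, a BMP-binding protein that can act for or against BMPs, rose from 104, 208, 143 and 147 in controls to 509, 470.2, 939, 779.8 and 445 in mutants, all above all controls (2.03 ± 0.27; limma, adjusted p = 0.0011). *Fstl5*, a follistatin-like protein, fell from 1727, 1268, 1214 and 1367 to 419, 435, 327, 583 and 419.7, all below all controls (-1.68 ± 0.18; limma, adjusted p = 0.00027). In the undated libraries alone, mutant 6 against the controls, the differences were 1.599 and -1.715. With name style as a term, again resting on mutant 6, *Bmper* missed the threshold (limma, adjusted p = 0.282) and *Fstl5* passed it (adjusted p = 0.046, the largest of its 19 alternatives).

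For the libraries labelled *Mtg8* mutant, 47 of these genes were tested and 0 were called by limma, DESeq2 or edgeR, with 7 at an unadjusted p under 0.05 (14.9%, against 5.49% of all genes). *Bmper* had 293, 227 and 347 in controls and 389, 200.3 and 295 in labelled mutants. *Fstl5* had 1972, 2474 and 2686 in controls and 1800.1, 1304 and 1507 in labelled mutants, without overlap (-0.63 ± 0.20; limma, adjusted p = 0.859). The MGE marker sums given with *Bmpr1b* separated the same libraries, and their part was not tested.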

How the data were processed

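RNA was measured in 15 libraries, each from the sorted YFP-positive cortical cells of 1 embryo. Reads had been trimmed (fastp 0.20.1), aligned (STAR 2.7b) and counted per gene (FeatureCounts 1.6.4) by the authors on a GRCm38 annotation without sex-linked genes. The deposited signal is the count of a gene divided by the DESeq2 size factor of its library, normalized separately in each of 2 tables. The authors' own comparison columns (mean, log2 fold change, its standard error, Wald statistic and p-values) were not used. The deposited lengths of exons gave levels per kilobase.

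Values were tested as log2(normalized count + 1) with limma 3.58.1 (R 4.3.3, mean-variance trend) where a gene's mean reached 10, each table alone, two-sided, at a Benjamini-Hochberg adjusted p under 0.05 over all genes. Whole reads were recovered (100% of values whole within 0.01) for DESeq2 1.42.0 and edgeR 4.0.16. Ratios of *Bmpr1b* to other receptors were tested by exact permutation. Depth was 12218422 to 22053032 reads, and the few embryos per group limit the precision.

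The genes and lists were chosen with earlier results of these data known. Values in every library are given for genes called by limma, at an unadjusted p under 0.05, for *Bmpr1b*, *Bmpr1a* and *Bmpr2*, and for the highest gene per kilobase of each role in controls, and also for called genes of the wider pathway. As alternatives, pseudocounts of 0.5 and 10 were tried, and a minimum mean of 50 or none, TMM factors, equal totals, DESeq2, edgeR, a replicate block, library-name style, and each library left out. A comparison within libraries of shared names was added after the data were seen.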

Additional observations from a re-analysis of the deposited data

Results flagged for a closer look

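Within groups of 4 or 5 libraries, 3 values of the named genes stood apart from the rest of their group by Dixon's criterion, out of 36 groups examined. Chance gives about 1 in 20 groups. *Bmpr1a* stood at 814 normalized counts in *Lhx6* mutant 1, against at most 586 in the other mutants. *Tgfb3* stood at 189 in *Lhx6* control 2, below the other controls and above all mutants. *Tgfbr1* stood at 823 in *Lhx6* mutant 5, below the other mutants and within the range of the controls.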

How the results depend on the processing

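*Tgfb3* in the *Lhx6* table was lower under all 19 alternatives and called in 18. The count of members called lower there was 1 except with library-name style as a covariate, where it was 0. The count called higher was 0 as reported, 1 with a pseudocount of 10 or a minimum mean of 50, 2 with DESeq2, and 0 to 2 when each library was left out. It was 1 without *Lhx6* control 3 (*Acvr2b*, adjusted p = 0.0453) and 2 without mutant 6 (*Acvr2b* and *Acvr1*, adjusted p = 0.0146 and 0.0339, limma). Over all genes, 172 were called higher with all libraries, 135 without control 3 and 344 without mutant 6. Other pathway genes called lower were 1 to 2 and called higher 1 to 2 when libraries were left out (2 lower without mutant 1, 2 higher without mutant 6), and 0 were called higher with library-name style. In the *Mtg8* table DESeq2 called 1 member higher.

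In the *Lhx6* table, library-name style gave -0.095 for *Bmpr1a*, 0.37 for *Bmpr1b* and -0.28 for *Bmpr2*, and leaving libraries out gave -0.046 to 0.14 for *Bmpr1a* and -0.23 to 0.093 for *Bmpr1b*. The ratio of *Bmpr1b* to *Bmpr1a* ran from -0.34 to 0.14 when libraries were left out. Within undated names the ratios were 0.46 to *Bmpr1a* and 0.65 to *Bmpr2* in the *Lhx6* table, and 2.76 to *Bmpr2* in the *Mtg8* table. The values with library-name style and within undated names of the *Lhx6* table rest on mutant 6 as the sole undated mutant, and the cause of the other shifts was not tested. In an alternative chosen after seeing the data, only libraries whose names differ in the last number alone were compared (2 controls with 1 mutant in each table). It gave -3.15 for *Tgfb3*, 0.57 for *Acvr2b*, 0.58 for *Acvr1*, 0.29 for *Bmpr1b* and -0.17 for *Bmpr2* in the *Lhx6* table, and 1.91 for *Bmpr1b* in the *Mtg8* table. *Bmpr1b* rests on at most 113 reads in a library, which limits its precision.

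In a fit with a replicate block, which rests on 3 *Lhx6* and 2 *Mtg8* pairs, *Bmpr1b* in the *Mtg8* table was called (1 member higher, 1.78, limma, adjusted p = 0.0436). That fit has 1 residual degree of freedom there and called 12 genes lower and 88 higher over the whole *Mtg8* table, against 0 without the block. *Bmpr1a* there turned to -0.038, and in the *Lhx6* table *Bmper* was not called (0 other pathway genes higher). The same-numbered libraries are different embryos, and of these pairs only *Mtg8* number 2 shares more of its library name. Their deviations correlated at -0.15, 0.002 and 0.07 for *Lhx6* and at 0.14 and 0.16 for *Mtg8*.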

Other observations

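Of 11 genes that respond to BMP and TGF-β signals, 7 were tested with *Lhx6* mutants and 6 with the labelled *Mtg8* mutants, and limma and DESeq2 called 0 of these. At an unadjusted p under 0.05 stood 2 of the 7 and 3 of the 6, against 12.7% and 5.49% of all genes, and groups that did not overlap occurred in 6.22% and 10.2% of all genes. The following were chosen after their values were seen. *Id3*, a target of BMP SMADs, had 927, 868, 894 and 839 normalized counts in *Lhx6* controls and 79.2, 299.9, 522, 678 and 499 in *Lhx6* mutants, with all mutants below all controls. Summed CGE interneuron markers separated these *Lhx6* libraries too (2786 to 4064 in controls, 4590 to 7733 in mutants), and their part was not tested. In the *Mtg8* table *Id3* had 862, 770.0 and 1188 in controls and 1219, 1742 and 1356 in labelled mutants, with all labelled mutants above all controls. The summed radial glia and progenitor markers separated the same libraries (8426 to 10125 in controls, 11302 to 15455 in labelled mutants), and their part in the values of these response genes was not tested. *Id2* averaged 2615 ± 769 (SD, n = 4) in *Lhx6* controls and 4026 ± 1090.0 (n = 5) in mutants, and 1959 ± 492 and 3304 ± 1396 in *Mtg8* controls and labelled mutants (n = 3 each), with overlap in both tables. *Hey1*, which also responds to Notch signals, averaged 357 ± 35.7 and 287 ± 95.2 in the *Lhx6* table, with overlap, and 180.4 ± 13.0 and 267 ± 49.8 in the *Mtg8* table, without overlap. *Id4* averaged 1959 ± 259 and 2168 ± 707, and 201 ± 27.2 and 313 ± 112, with overlap in both tables. *Id1*, another target of BMP SMADs, averaged 58.2 ± 12.03 and 60.8 ± 24.9 in the *Lhx6* table and 36.1 ± 8.15 and 31.6 ± 5.02 in the *Mtg8* table (n = 3 each), with overlap in both.

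The controls of both tables also had different values for some members. In RPM, the reads of a gene scaled to a common library total, *Tgfb3* averaged 19.9 ± 4.94 in *Lhx6* controls and 59.4 ± 9.54 in *Mtg8* controls. *Nog*, a BMP antagonist, averaged 2.13 ± 0.60 and 0.28 ± 0.16. These are separate sets of embryos whose tables were normalized separately, and the difference was not tested.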
